A study of Rattus norvegicus with 23 samples.

Results

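The genes described here are those that bind, move and sense zinc, iron and copper: the metallothioneins Mt1, Mt2A and Mt3 with their transcription factor Mtf1, every zinc transporter of the Slc30a and Slc39a families, and a named set of iron and copper genes. They were picked out of the annotation of the array by their gene symbols. Of 45 symbols or family members, 44 were named on the array, out of 25635 named genes. Mt1a, an older name that the array annotation does not use, had no probe under that symbol. The filter on dim probes left 43 of the 44, and 23054 genes in all. The gene that failed was Slc30a10, whose probe was well above background on 0 of 23 arrays.

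The arrays measured total RNA of the accessory lobe of the lung from male F344 rats (an inbred laboratory strain, also called Fisher) that were 19 months old when inhalation began. Exposed rats breathed an aerosol of nanostructured titanium dioxide (TiO2) at 10 mg/m3 through the nose only, 6 hours a day and 5 days a week for 4 weeks, and control rats breathed filtered air under the same schedule. Lungs were taken at the end of exposure (D0) or 28 days later (D28). Arrays were at hand for 6 control and 5 exposed rats of D0 and for 6 of each on D28. The paper states 6 rats per group and day, so that the exposed D0 group is incomplete here. Each array carried 1 sample labelled with 1 dye. The source field of the exposed D28 arrays reads as D0 and their titles and descriptions give D28, which was the day used. An accessory lobe is a mixture of epithelial, vascular, connective and immune cells, so that fewer cells of a type and less RNA per cell could not be told apart. All 10 lung markers were well above background on all arrays, and their mean lay between 14.69 and 15.07 on the log2 scale.

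Metallothioneins are small proteins rich in cysteine that bind zinc, copper and cadmium and take part in the defence against oxidants. Free zinc in the cell activates the transcription factor MTF-1 (Mtf1), which binds metal response elements in the promoters of metallothionein genes and of the zinc exporter Slc30a1, and glucocorticoids and inflammatory cytokines also induce metallothioneins. Slc30a proteins move zinc out of the cytosol and Slc39a proteins move it in. Iron enters cells by the transferrin receptor (Tfrc) or by divalent metal transporter 1 (Slc11a2), is stored in ferritin (Fth1 and Ftl1), and leaves through ferroportin (Slc40a1), which the peptide hormone hepcidin (Hamp) binds and removes. In the lung, alveolar macrophages take up and store much of the iron that reaches the airspace.

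The promoters of the metallothioneins are shown because metal response elements are the feature by which this group is known, and that of Slc30a1 because it is the exporter best known as a target of MTF-1. The letters searched were TGCACNC and TGCGCNC, the core of the element, on both strands, in the 250 bases before the RefSeq gene start. Matches are in capitals and none overlapped another. All sequences are from RefSeq promoter windows on the rat build GRCr8, given 5′ to 3′ on the strand of the gene. Mt1 is at chr19:10832976-10833225 (minus strand), Mt2A at chr19:10838709-10838958 (minus), Mt3 at chr19:10856081-10856330 (minus) and Slc30a1 at chr13:106021769-106022018 (plus).
Mt1: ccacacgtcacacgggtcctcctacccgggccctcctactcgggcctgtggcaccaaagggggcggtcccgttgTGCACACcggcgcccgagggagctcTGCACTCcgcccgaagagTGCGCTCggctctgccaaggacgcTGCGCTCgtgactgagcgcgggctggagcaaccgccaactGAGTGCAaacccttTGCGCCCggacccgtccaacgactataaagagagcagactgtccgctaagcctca
Mt2A: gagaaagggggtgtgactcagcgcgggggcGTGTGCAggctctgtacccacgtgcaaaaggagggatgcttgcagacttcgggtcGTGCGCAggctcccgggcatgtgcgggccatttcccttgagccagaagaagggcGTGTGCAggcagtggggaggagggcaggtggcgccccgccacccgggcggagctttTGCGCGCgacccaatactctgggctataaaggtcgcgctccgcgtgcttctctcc
Mt3: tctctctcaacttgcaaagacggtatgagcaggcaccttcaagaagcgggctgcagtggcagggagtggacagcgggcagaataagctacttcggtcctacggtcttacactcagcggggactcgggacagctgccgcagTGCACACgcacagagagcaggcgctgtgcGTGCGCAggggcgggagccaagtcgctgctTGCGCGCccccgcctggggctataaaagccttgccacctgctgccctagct
Slc30a1: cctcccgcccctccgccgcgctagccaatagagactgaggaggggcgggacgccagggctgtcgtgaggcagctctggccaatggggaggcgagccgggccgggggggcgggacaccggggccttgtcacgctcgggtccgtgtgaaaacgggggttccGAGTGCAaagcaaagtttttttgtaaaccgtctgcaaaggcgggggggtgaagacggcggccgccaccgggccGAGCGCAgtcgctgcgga

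The Mt1 window held 6 matches, a number reached by 9 of 33469 rat windows of the same length (0.0269%). Mt2A held 4, a number reached by 0.266% of windows, Mt3 held 3 (1.17%) and Slc30a1 held 2 (4.90%). The windows of the exporters Slc30a4 and Slc30a5, and 1 of the 2 windows of Slc30a2, held 2 matches too. A window with at least 1 match was found for 16 of the 36 members with an entry and for 20.6% of all windows. The 5 members with 3 or more matches were the 3 metallothioneins, Slc39a7 and Tfrc. The Slc30a3 window, at chr6:30997164-30997413 (plus strand), held none. The core of the antioxidant response element, TGACNNNGC on either strand, occurred once in the Mt1 and in the Mt2A window and in 10.1% of all windows.

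The hepcidin promoter is shown because Hamp was the member that fell. It was searched for the letters TTCNNNGAA, which STAT factors bind and through which interleukin 6 induces the gene, and for GGCGCC, the element of the bone morphogenetic protein pathway. Both are palindromes in their fixed letters, so that each was searched on both strands at once. The window lies at chr1:95300272-95300521 on the minus strand of GRCr8.
Hamp: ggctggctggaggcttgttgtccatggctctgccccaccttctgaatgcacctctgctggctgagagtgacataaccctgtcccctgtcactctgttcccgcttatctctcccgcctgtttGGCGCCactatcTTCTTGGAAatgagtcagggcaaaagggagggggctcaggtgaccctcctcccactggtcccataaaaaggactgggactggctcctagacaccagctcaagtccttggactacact

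Each pattern occurred once in this window, between 109 and 129 bases before the start. At least 1 match to the STAT pattern was found in 7.67% of all windows and at least 1 match to the other in 8.69%. A match describes letters only and does not show that a factor was bound.

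On D0, exposed lungs had higher levels of Mt1, Mt2A and the zinc transporter Slc30a3 than control lungs, and a lower level of Hamp. These 4 of 43 members were called, that is, had a limma p-value adjusted by the Benjamini-Hochberg method over all genes below 0.05 together with a fold change of at least 1.5. Over all genes tested, 1.78% were called on D0, 1.08% as higher and 0.694% as lower. On D28, 0 of 43 members were called, against 0.755% of all genes, 1 member (Mt1) had an adjusted p below 0.05 with a smaller fold change (1.31% of all genes passed by that p alone), and 8 had an unadjusted p below 0.05, where 11% of all genes did. The median log2 fold change of the 43 members was 0.05 on D0, beside -0.0006 over all genes, and 0.03 on D28, beside -0.005. On D0, 9 of 43 members had an unadjusted p below 0.05, where 11.9% of all genes did. No list test was made on these medians.

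**Figure D1:**
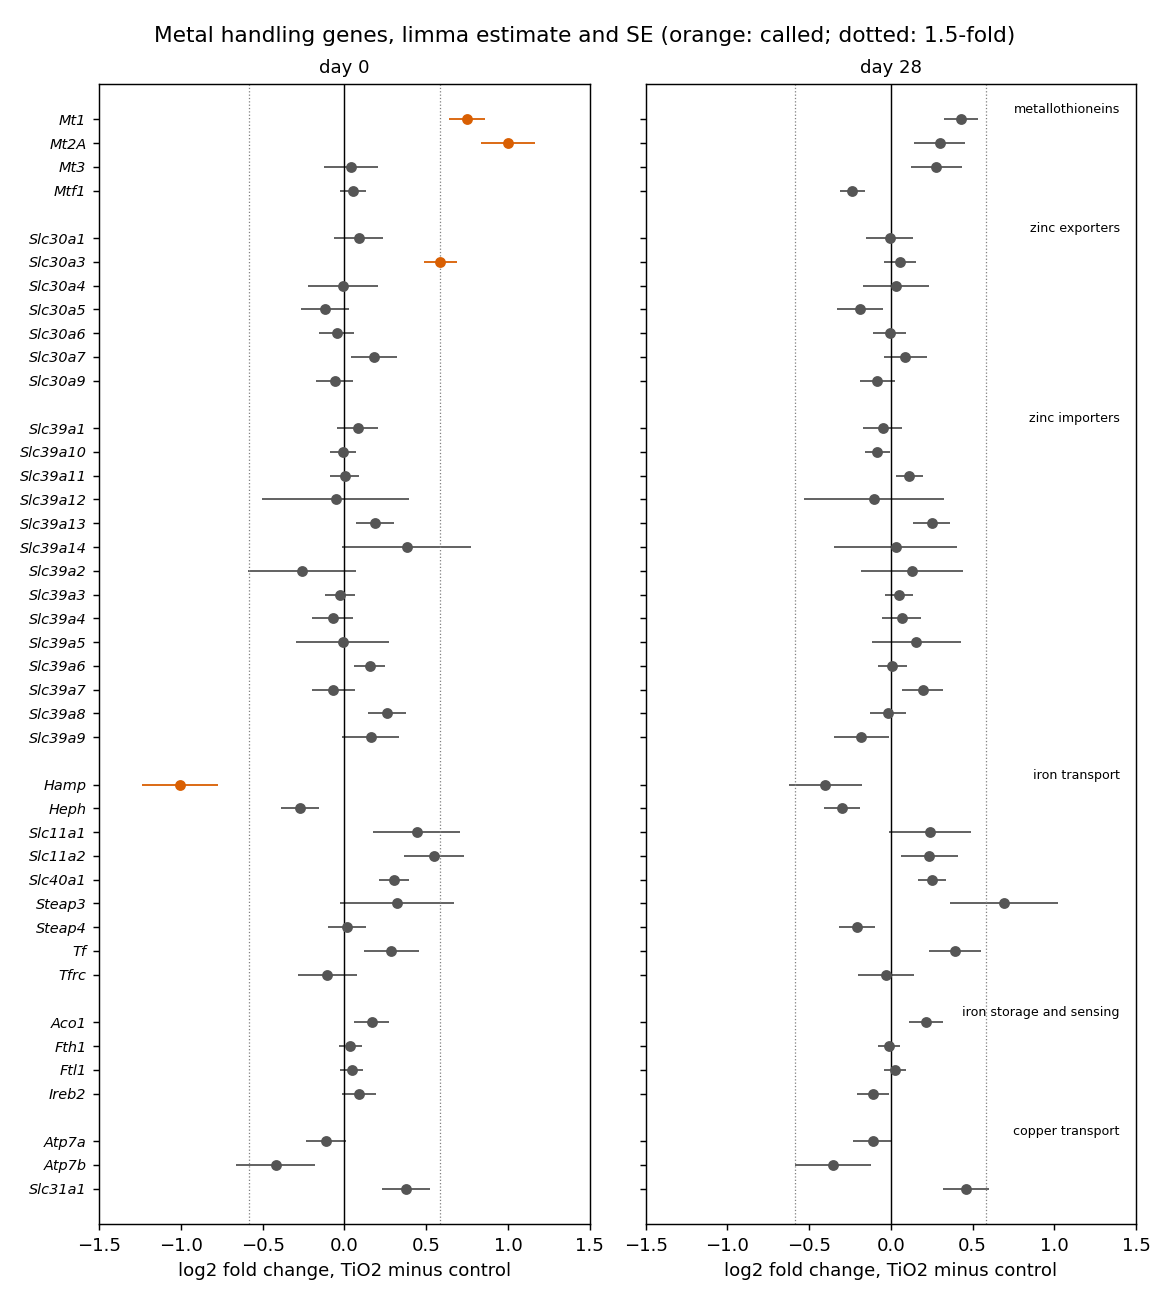
Log2 fold change (exposed minus control) on D0, left, and on D28, right, for 41 tested members ordered by role, leaving out Slc30a2 and Slc30a8, whose probes were mostly at background. Points are limma estimates, bars are standard errors, orange marks the 4 members called and dotted lines mark the 1.5-fold limit. On D0 Mt1, Mt2A and Slc30a3 lie at 0.75, 1.00 and 0.59 and Hamp at -1.01, and on D28 no point is orange.

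Mt2A, with Mt1 the metallothionein found in most tissues, had log2 signals of 12.41, 12.15, 12.28, 12.61 and 12.34 in the 5 exposed lungs of D0. In the 6 controls of D0 its signal went from 11.05 through a median of 11.35 to 11.68. All exposed lungs were above all controls, and the groups did not overlap. The mean was 12.36 ± 0.17 (SD, n = 5) against 11.36 ± 0.21 (SD, n = 6), a log2 fold change of 1.00 ± 0.16 (SE), or 2.00-fold, with a limma adjusted p of 0.00106.

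Mt1 had log2 signals of 12.41, 12.34, 12.20, 12.68 and 12.02 in the exposed lungs of D0. The controls of D0 lay between 11.39 and 11.72, with a median of 11.59, again with no overlap. The log2 fold change was 0.75 ± 0.11 (SE), or 1.68-fold, with a limma adjusted p of 0.000509. Mt1, Mt2A and Slc30a3 were the 3 members whose arrays did not overlap between the groups on D0, where 4.3% of all genes tested did not overlap.

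On D28 the fold changes of both metallothioneins were smaller. Mt1 lay between 11.84 and 12.10 in the 6 exposed lungs, with a median of 11.95, and between 11.28 and 11.88 in the 6 controls, with a median of 11.54. All but the lowest exposed value were above the highest control, and the log2 fold change was 0.43 ± 0.11 (SE), or 1.35-fold, with a limma adjusted p of 0.0454. That adjusted p was 0.171 when only the D28 arrays were fitted and ranged from 0.0102 to 0.171 over the alternatives. Mt2A went from 11.44 through 11.99 to 12.29 in exposed lungs and from 11.05 through 11.72 to 11.92 in controls of D28. The groups overlapped, and the log2 fold change of 0.30 ± 0.15 (SE) had a limma adjusted p of 0.513. Without control replicate 5 of D28 it was 0.18.

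The effect on D28 was set against the effect on D0 in the same limma fit. The difference (D28 minus D0) was -0.70 ± 0.22 (SE) on the log2 scale for Mt2A, with an unadjusted p of 0.00508 and an adjusted p of 0.869. For Mt1 it was -0.32 ± 0.15 (SE), with an adjusted p of 1.00. A change of either effect between the days was thus not called, and 0 of 43 members were called in this contrast, where 0.0304% of all genes were, and 4 had an unadjusted p below 0.05, where 3.44% of all genes did.

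**Figure D2:**
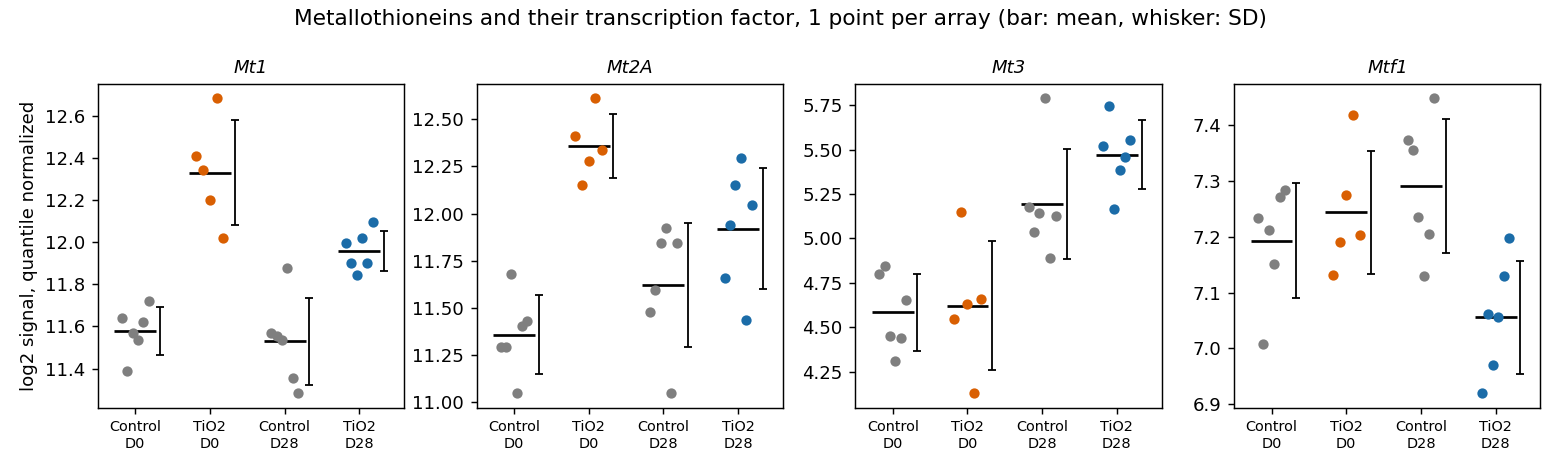
Log2 signal (quantile normalized) of Mt1, Mt2A, Mt3 and Mtf1 by group, 1 point per array, with the mean as a bar and the SD as a whisker (6 arrays a group, 5 for exposed D0). The 5 exposed D0 arrays of Mt1 (12.02 to 12.68) and of Mt2A (12.15 to 12.61) sit above all controls of D0, while Mt3 overlaps between exposed and control on both days.

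Mt3, the metallothionein first described in brain, gave a weak signal on all 23 arrays. It went from 4.31 through 4.55 to 4.85 in D0 controls and was 4.54, 5.15, 4.63, 4.13 and 4.66 in exposed lungs of D0, so that the groups overlapped. The log2 fold change on D0 was 0.04 ± 0.16 (SE), with a limma adjusted p of 0.996. Between the control groups it was higher on D28, from 4.89 through 5.13 to 5.79, and these 6 arrays did not overlap the D0 controls. The log2 difference of 0.61 ± 0.16 (SE) had an adjusted p of 0.0719. The highest value, 5.79, was that of control D28 replicate 4, with the next array at 5.17. Replicate 4 was the only array of its slide and the only one read with a later version of the scanner software. Mt3 and Slc39a10 were the 2 members whose control groups did not overlap, where 1.62% of all genes did not. They, and Tf, Slc11a2 and Mtf1, were singled out after their values were seen.

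The 3 metallothionein genes are neighbours on chromosome 19. On the rn4 build that the array files use, the probes of 60 bases lie at chr19:11261631-11261690 (Mt1), chr19:11267834-11267893 (Mt2A) and chr19:11284627-11284686 (Mt3), with gaps of 6.14 and 16.7 kb. Metallothioneins resemble each other, and a probe can bind RNA of a relative. The probes of Mt1 and Mt2A had no shared run longer than 7 bases, and their best ungapped alignment matched 25 of 45 bases. The longest run shared by the probes of Mt1 and Mt3 was 9 bases. Probes were compared with each other and not with the transcripts, so that binding to RNA of a relative was not tested.

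Mtf1, which encodes the zinc sensor, had log2 signals of 7.13, 7.19, 7.28, 7.42 and 7.20 in exposed lungs of D0, and went from 7.01 through 7.22 to 7.28 in controls, so that 4 of the 5 lay within the range of the controls and replicate 4 above it. Its log2 fold change was 0.05 ± 0.08 (SE) on D0, with a limma adjusted p of 0.954. On D28 it went from 6.92 through 7.06 to 7.20 in exposed lungs and from 7.13 through 7.30 to 7.45 in controls, a difference of -0.24 ± 0.08 (SE), with an adjusted p of 0.154.

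Among the Slc30a exporters, Slc30a3 was called on D0. This transporter (ZnT3) loads zinc into vesicles and is best known from synapses. Its 5 exposed lungs of D0 read 9.86, 9.38, 9.40, 9.50 and 9.78 on the log2 scale, and the D0 controls went from 8.81 through 8.96 to 9.19. The groups did not overlap. The log2 fold change was 0.59 ± 0.10 (SE), just over 1.5-fold, with a limma adjusted p of 0.00171. The gene has 2 probes, at chr6:25264735-25264794 and chr6:25264873-25264932 of rn4, which gave 0.59 and 0.58. The fold change stood just past the 1.5-fold limit (0.585 on the log2 scale), and it came to less in 5 of 11 alternatives and in 6 of 23 fits that left out 1 array, down to 0.52. The adjusted p stayed below 0.05 in all of these, at most 0.0232.

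On D28 Slc30a3 was at 8.98 to 9.21 in exposed lungs and at 8.80 to 9.15 in controls. The log2 fold change was 0.06 ± 0.10 (SE), with a limma adjusted p of 0.916. Its difference between the days, -0.53 ± 0.14 (SE), had an adjusted p of 0.421.

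None of the other exporters was called in any contrast. Slc30a1, which carries zinc out through the plasma membrane, had a log2 fold change of 0.09 ± 0.15 (SE) on D0 and -0.01 ± 0.14 (SE) on D28. Over the 7 exporters measured on all arrays, the log2 fold changes went from -0.12 (Slc30a5) to 0.59 (Slc30a3) on D0 and from -0.19 (Slc30a5) to 0.09 (Slc30a7) on D28. Slc30a2 was well above background on 2 of 5 exposed and 0 of 6 control arrays on D0, and Slc30a8 on 1 and 0. With so few arrays above background no fold change is given for either, and the limma adjusted p of Slc30a2 on D0 was 0.684.

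None of the 14 Slc39a importers was called in any contrast. Their log2 fold changes went from -0.26 (Slc39a2) to 0.38 (Slc39a14) on D0, with a lowest limma adjusted p of 0.354, and from -0.18 (Slc39a9) to 0.25 (Slc39a13) on D28, with a lowest adjusted p of 0.401. Slc39a14 (ZIP14), which inflammation induces in liver and which also carries iron, was well above background on 13 of 23 arrays. Its exposed lungs of D0 read 4.44, 4.60, 4.15, 3.48 and 6.64, and the D0 controls went from 3.96 through 4.25 to 4.60. The 6.64 of replicate 5 was the only exposed value above all controls, and without that array the log2 fold change was -0.11 in place of 0.38. On D28 the exposed lungs went from 3.07 through 4.18 to 4.84 and the controls from 3.48 through 4.12 to 4.85, and the groups overlapped.

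Slc39a13 (ZIP13), which moves zinc out of intracellular stores, read 12.46, 12.27, 12.48, 12.29 and 12.19 in exposed lungs of D0 and went from 12.02 through 12.09 to 12.40 in controls. On D28 it went from 12.18 through 12.38 to 12.63 in exposed lungs and from 11.90 through 12.16 to 12.41 in controls. Groups overlapped on both days, and the D28 difference of 0.25 ± 0.11 (SE) on the log2 scale had a limma adjusted p of 0.401. Slc39a8 (ZIP8), a zinc and manganese importer of lung epithelium and macrophages, had a log2 fold change of 0.26 ± 0.12 (SE) on D0, with an adjusted p of 0.354.

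Hamp was the member that fell. It encodes hepcidin, the liver hormone that lowers iron export, which macrophages and epithelia also make. In the exposed lungs of D0 its log2 signal was 7.94, 8.07, 8.44, 7.11 and 7.61. In the D0 controls it went from 8.34 through 8.82 to 9.29. Of the exposed lungs, 4 lay below all controls and replicate 3 (8.44) lay just above the lowest one. Hamp fell by 1.01 ± 0.23 (SE) on the log2 scale, 2.01-fold, with a limma adjusted p of 0.0184. Its probe lies at chr1:85978236-85978295 of rn4 and was well above background on all 23 arrays.

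The call on Hamp was lost without either of 2 arrays. Without exposed replicate 4 of D0 the log2 fold change was -0.83, with a limma adjusted p of 0.0673. Without replicate 5 it was -0.95, with a limma adjusted p of 0.0538. Replicate 4 had the smallest share of spots well above background of all arrays, 69.5%. On D28 Hamp went from 7.66 through 8.12 to 8.52 in exposed lungs and from 7.94 through 8.57 to 9.09 in controls. The groups overlapped, with a log2 fold change of -0.40 ± 0.22 (SE) and an adjusted p of 0.557. Its difference between the days, 0.61 on the log2 scale, was not called. Of 10 liver markers measured beside Hamp, 0 were called on either day. The liver list averaged 2.74 to 3.42 on all arrays, and Alb was well above background on 5 of the 23.

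**Figure D3:**
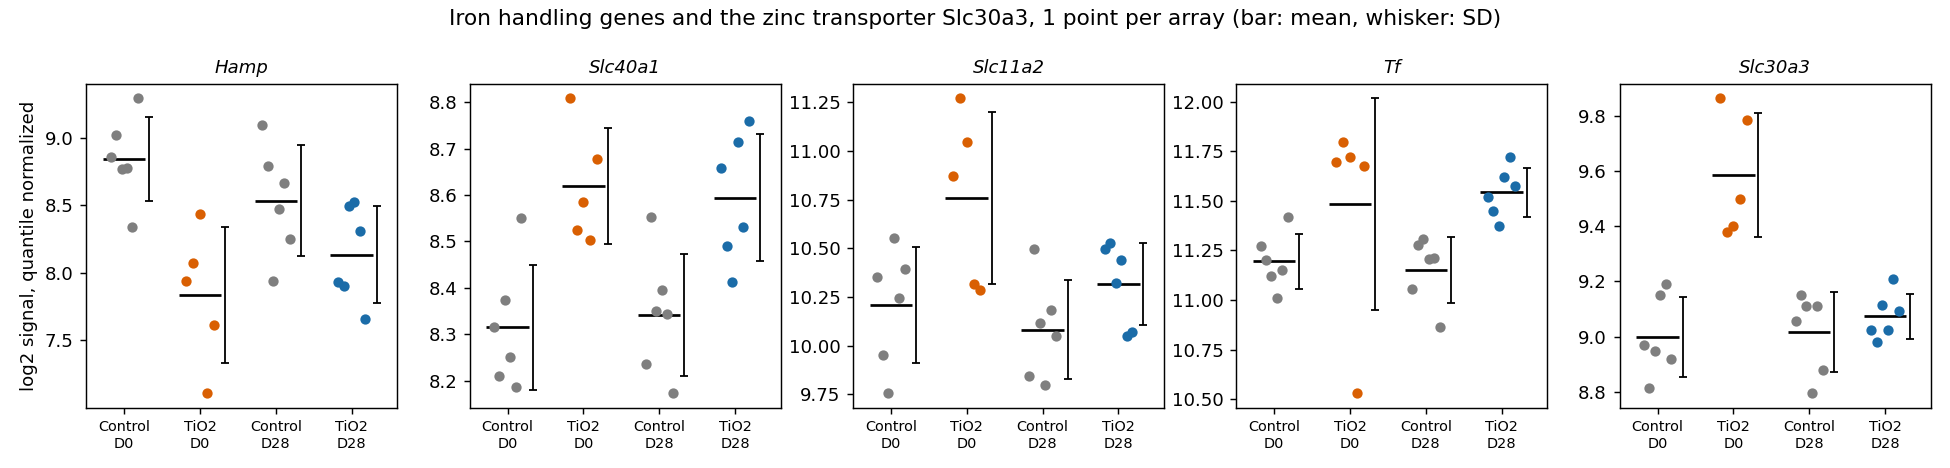
Log2 signal (quantile normalized) of Hamp, Slc40a1, Slc11a2, Tf and Slc30a3 by group, 1 point per array, with the mean as a bar and the SD as a whisker (6 arrays a group, 5 for exposed D0). The exposed D0 arrays lie lower for Hamp (7.11 to 8.44) and higher for Slc30a3 (9.38 to 9.86), and exposed D0 replicate 4 is the single low point of Tf at 10.53.

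Slc40a1 encodes ferroportin, the only known exporter of iron from cells and the protein that hepcidin removes. Its exposed lungs of D0 read 8.81, 8.52, 8.58, 8.50 and 8.68 on the log2 scale, and the D0 controls went from 8.19 through 8.28 to 8.55. On D28 exposed lungs went from 8.41 through 8.59 to 8.76 and controls from 8.17 through 8.35 to 8.55. Exposed lungs were higher on average on both days, with overlap. The log2 fold changes were 0.30 ± 0.09 (SE) on D0 and 0.25 ± 0.09 (SE) on D28, with limma adjusted p values of 0.0758 and 0.190, so that neither passed. Its 2 probes gave 0.23 (limma adjusted p 0.525) and 0.38 (0.0398) on D0 and 0.22 and 0.29 on D28. Over the alternative settings the limma adjusted p of the gene went from 0.0385 to 0.388 on D0 and from 0.0939 to 0.476 on D28.

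Slc11a2, which brings iron across membranes, read 10.87, 11.27, 11.05, 10.32 and 10.29 in exposed lungs of D0 and went from 9.76 through 10.30 to 10.55 in controls. Of these, 3 lay above all controls and the other two within them. The log2 fold change was 0.55 ± 0.18 (SE), with a limma adjusted p of 0.132. Slc11a1 (Nramp1), the metal transporter of the macrophage phagosome, had a log2 fold change of 0.44 ± 0.26 (SE) on D0, with an adjusted p of 0.613.

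Tf, which encodes the iron carrier transferrin, read 11.69, 11.79, 11.72, 10.53 and 11.67 in exposed lungs of D0 and went from 11.01 through 11.18 to 11.42 in controls. Replicate 4 was below all controls and the other 4 were above all of them, and the log2 fold change of 0.29 ± 0.17 (SE) had a limma adjusted p of 0.584. On D28 exposed lungs went from 11.37 through 11.55 to 11.72 and controls from 10.86 through 11.21 to 11.31. Tf was the only member whose groups did not overlap on D28, where 1.22% of all genes did not, and its log2 fold change of 0.39 ± 0.16 (SE) had an adjusted p of 0.319. Tfrc, which takes up iron-laden transferrin, had log2 fold changes of -0.10 ± 0.18 (SE) and -0.03 ± 0.17 (SE) on the 2 days.

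Steap3, a reductase of the transferrin cycle, was dim, well above background on 17 of 23 arrays. Its exposed lungs went from 3.75 through 4.79 to 5.55 on D28 and its controls from 2.98 through 4.03 to 5.11, with a log2 fold change of 0.69 ± 0.33 (SE) and a limma adjusted p of 0.453. With normexp background correction the D28 value of Steap3 was 0.18. On D0 it read 5.30, 4.63, 5.22, 4.36 and 4.73 in exposed lungs and went from 4.19 through 4.34 to 5.12 in controls. Heph, the ferroxidase that works with ferroportin, had log2 fold changes of -0.27 ± 0.12 (SE) on D0 and -0.30 ± 0.11 (SE) on D28, with adjusted p values of 0.301 and 0.242.

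The ferritin subunits did not pass the test on either day. The log2 fold change of Fth1 was 0.04 ± 0.07 (SE) on D0 and -0.01 ± 0.07 (SE) on D28, and that of Ftl1 was 0.05 ± 0.07 (SE) and 0.02 ± 0.07 (SE). Ferritin is controlled to a large part at translation, which arrays do not measure. Aco1, the iron-sensing protein IRP1, had the largest change of the storage and sensing genes on both days. It read 11.46, 11.30, 11.23, 11.45 and 11.19 in exposed lungs of D0 beside controls with a median of 11.17 and a highest value of 11.30, and 10.81 to 11.43 on D28 against 10.66 to 11.10. The limma adjusted p was 0.658 on D0 and 0.464 on D28.

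Of the 3 copper genes, 0 were called. Slc31a1 (CTR1), the copper importer of the plasma membrane, read 7.18, 7.40, 7.48, 7.04 and 7.30 in exposed lungs of D0 and went from 6.56 through 6.93 to 7.24 in controls. On D28 exposed lungs went from 6.87 through 6.99 to 7.55 and controls from 6.30 through 6.65 to 7.07. The log2 fold changes were 0.38 ± 0.15 (SE) and 0.46 ± 0.14 (SE), with limma adjusted p values of 0.243 and 0.128. Normexp background correction lowered the fold changes to 0.23 and 0.26. Over the 11 alternative settings the limma adjusted p went from 0.0176 to 0.255 on D0 and from 0.0207 to 0.375 on D28. Slc31a1 was called in none of these settings. The 3 probes of Slc31a1 gave 0.49, 0.41 and 0.23 on D0 and 0.85, 0.33 and 0.20 on D28.

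Atp7b, a copper-exporting ATPase, read 4.62, 4.37, 4.94, 3.47 and 4.02 in exposed lungs of D0 and went from 4.25 through 4.69 to 5.14 in controls. Its 2 probes disagreed on D0, with log2 fold changes of 0.12 and -0.96, and the second was well above background on 7 of 23 arrays. With the brighter probe alone the direction turned, from -0.42 to 0.12. On D28 the exposed lungs went from 3.87 through 4.68 to 5.10 and the controls from 4.47 through 4.93 to 5.10, with a log2 fold change of -0.35 ± 0.23 (SE). For Atp7b on D28 the brighter probe alone gave -0.10 and normexp background correction -0.07.

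The arrays lay on 5 slides, and 4 slides held both groups of D0 and 3 held both groups of D28. Within slides, Mt2A was higher in exposed lungs on 4 of 4 slides on D0, by 0.85 to 1.26 on the log2 scale, and Mt1 on 4 of 4, by 0.48 to 1.05. Slc30a3 was higher on 4 of 4, by 0.42 to 1.05, and Hamp was lower on 4 of 4, with differences of -1.49 to -0.85. On D28 Mt1 was higher on 3 of 3 slides, by 0.41 to 0.62, and Slc40a1 on 3 of 3, by 0.18 to 0.32. The differences within slides thus had the same direction as the pooled ones for these genes on these days. For Mt1, Mt2A and Slc30a3 on D0 that direction was fixed beforehand, since all exposed arrays lay above all controls. The slides reuse the arrays of the pooled comparison and are no separate support for it.

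**Figure D4:**
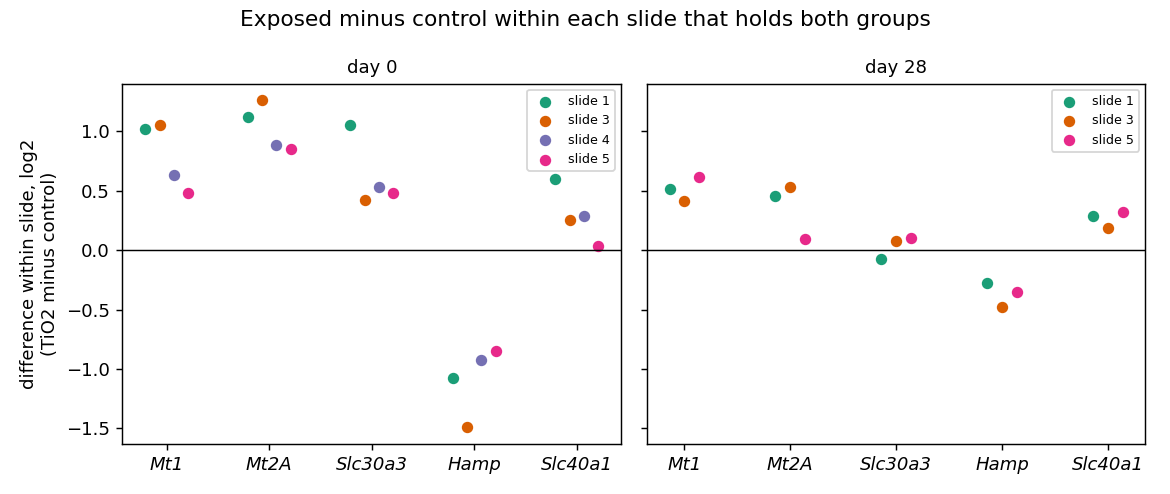
Difference between the mean log2 signal of exposed and control arrays within each slide that held both groups, on D0 (4 slides, left) and D28 (3 slides, right), 1 point per slide with no error, since most slides held 1 or 2 arrays a group. On D0 all points of Mt1, Mt2A and Slc30a3 are above 0 (0.42 to 1.26) and all points of Hamp below (-1.49 to -0.85). For Mt1, Mt2A and Slc30a3 that side was fixed by the lack of overlap between the groups.

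The wider iron, heme and copper genes were then read beside the members. Of 29 other iron and heme genes tested, 0 were called on either day, and their median log2 fold change was -0.03 on D0 and 0.03 on D28. Hmox1, the enzyme that releases iron from heme, had log2 fold changes of 0.64 ± 0.21 (SE) and 0.61 ± 0.20 (SE), with limma adjusted p values of 0.126 and 0.170. Of 9 other copper genes, 0 were called on either day, and Sod3, the extracellular superoxide dismutase, was lower by an adjusted p alone on D28 (log2 fold change -0.51, adjusted p 0.00920).

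Secreted proteins that withhold iron, heme or zinc were read as well. Of 6 tested, 3 rose on D0: Lcn2, which traps the iron carriers of bacteria (log2 fold change 1.65, limma adjusted p 0.00139), Hp, which binds free haemoglobin (0.91), and Hpx, which binds free heme (0.90). On D28 Hp alone was called (0.76). The mean of the list went from 9.12 to 9.69 in D0 controls. It was between 10.13 and 10.39 in 4 exposed lungs of D0 and 9.25 in replicate 4. Replicate 4 was the same array that was lowest for Tf and Hamp and highest for Mt1 and Mt2A. It also had the smallest share of spots well above background of all arrays, 69.5%. Its 75th percentile of signal, 1445, was the lowest of the D0 arrays. Its median correlation with the arrays of its own group, 0.977, was the lowest in that group. The part of array quality in its values was not tested. Without that array Mt1, Mt2A and Slc30a3 were still called, at 0.66, 0.94 and 0.61, and 3 of 43 members in all.

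Markers of other cell types were read beside the members, and the mean of the macrophage list was higher in exposed lungs, with no test made of that mean. Of 14 macrophage markers, 2 (Chi3l1 and Siglec1) were called higher on D0 and 1 (Chi3l1) on D28. The median of their log2 fold changes was 0.47 and 0.26. The list mean was 8.28 to 8.59 in D0 controls and 8.80 to 9.14 in exposed lungs of D0, with no overlap, and 8.05 to 8.52 against 8.56 to 8.93 on D28. Marco was well above background on 2 arrays, both from exposed lungs of D0, and the other 13 on all arrays. Of 12 neutrophil markers, 0 were called on either day, with a median log2 fold change of -0.09 on D0 and -0.32 on D28. The neutrophil list mean was 7.12 to 8.08 in D0 controls and 6.81 to 7.69 in exposed lungs of D0, with overlap. The arrays did not count cells, and the paper reports a higher percentage of neutrophils in lavage fluid of exposed rats on both days. Of 12 erythroid markers, 1 (Ahsp, a chaperone of haemoglobin) was called lower on D0 and 0 were called on D28. Their median log2 fold change was -0.29 on D0 and -0.39 on D28, with 3 and 1 of 12 positive. The list mean was 9.30 to 9.86 in D0 controls and 9.14 to 9.60 in exposed lungs of D0. On D28 it was 9.20 to 9.91 in controls and 9.03 to 9.49 in exposed lungs. The groups overlapped on both days. The part of these cells in the results on Mt1, Mt2A, Slc30a3, Hamp and Slc40a1 was not tested.

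Glucocorticoids induce metallothioneins, so that 9 genes known to be induced by them were read too. On D0, 3 of 9 were called lower (Zbtb16, Per1 and Klf9) and 0 higher, with a median log2 fold change of -0.47. The list mean was 10.31 to 10.79 in D0 controls and 9.78 to 10.04 in exposed lungs, with no overlap. On D28, 2 of 9 were called lower (Zbtb16 and Fkbp5), with a median log2 fold change of -0.17. The list mean was 10.59 to 11.25 in D28 controls and 9.79 to 10.77 in exposed lungs, with overlap. The part of these genes in the metallothionein results was not tested.

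**Figure D5:**
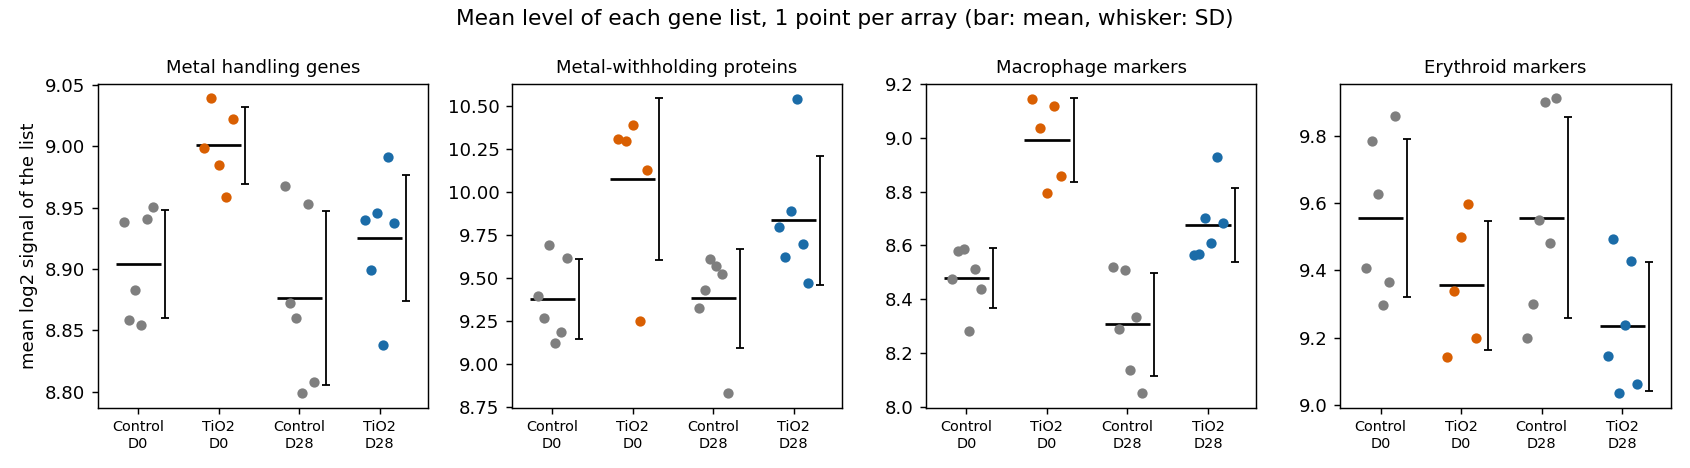
Mean log2 signal of the tested genes of 4 lists by group (43 metal handling genes, 6 metal-withholding proteins, 14 macrophage markers and 12 erythroid markers), 1 point per array, with the mean as a bar and the SD as a whisker (6 arrays a group, 5 for exposed D0). The metal handling genes, with no test made, went from 8.85 to 8.95 in D0 controls and from 8.96 to 9.04 in exposed lungs of D0 without overlap. That mean includes the called Mt1, Mt2A, Slc30a3 and Hamp and dim members such as Slc30a2. The median log2 fold change of the 43 members on D0 was 0.05, with 26 positive. Exposed D0 replicate 4 is the low point of the metal-withholding proteins at 9.25.

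Between the control groups, D28 against D0, 0 of 43 members were called, where 0.607% of all genes were, and 9 members had an unadjusted p below 0.05, where 13.2% of all genes did. The log2 differences went from -0.78 (Slc39a2) to 0.61 (Mt3). Slc39a10, a zinc importer of the plasma membrane, had control arrays of 9.63 to 9.83 on D0 and of 9.94 to 10.11 on D28, a difference of 0.27 ± 0.08 (SE) with a limma adjusted p of 0.118. Mt1 differed by -0.05 and Hamp by -0.31 between the control groups, and neither passed the test.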

How the data were processed

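Total RNA of 23 lungs was labelled with 1 dye and hybridised to Agilent arrays. The authors deposited 1 scanner file per array with spot intensity as written by Agilent Feature Extraction (11.0.1.1 per the labels, 12.0.1.1 in the header of control D28 replicate 4), background-subtracted and not normalized between arrays, and a table of their own processed values, used here as an alternative. Exposed D0 had 5 arrays here and each other group 6.

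The log2 of the processed signal was quantile normalized. Probes above the 95th percentile of 308 negative controls on at least 5 arrays were kept (40417 of 45598), and probes of a gene were averaged after normalization (6970 genes had several). A model with 4 group means (19 residual degrees of freedom) was fitted with limma 3.58.1 in R 4.3.3, with Benjamini-Hochberg adjustment over 23054 genes. A gene was called at an adjusted p below 0.05 and at least 1.5-fold. Arrays had 75th percentiles of 1383 to 3470 and 69.5 to 77.9% of spots well above background, and correlated at 0.958 to 0.989. Their number limits the precision, and p-values set differences between group means against the spread between these samples. The fit was tested on simulated data.

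Members were chosen for display by rule: those called or with an adjusted p below 0.05 in any contrast, and Mt1, Mt2A and Slc40a1. The member with the largest log2 fold change of each role group on each day was included too. Values of single arrays are given for exposed D0, and ranges for the other groups. Slc30a2 met the rule but was mostly at background and is given without values. Mt3, Mtf1, Slc11a2, Tf and Slc39a10 were added after their values were seen. Members and lists were chosen with earlier results of these data known. Replicate numbers were not taken as pairs in the main fit. Deviations of same-numbered arrays correlated at -0.23 to -0.12 on D0 and at -0.17 to 0.46 on D28. Such correlations cannot settle whether the samples were paired. Promoter windows came from RefSeq on GRCr8, with an entry for 36 of 44 members. Alternatives covered scaling, background correction, the filter, the choice of probe, the arrays fitted, slide and replicate blocks, and leaving out each array.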

Additional observations from a re-analysis of the deposited data

Results flagged for a closer look

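For 17 members and 5 gene lists, each group was searched for an array far from the others of its group. Of 88 groups tested, 6 held one, and chance flags about 1 in 20. Mt3, Slc11a2, Tf, Mtf1 and Slc39a10 were included after their values were seen, so that this rate does not hold for their groups. Exposed D0 replicate 4 gave the lowest Tf, 10.53 on the log2 scale with the next array at 11.67, and the lowest mean of the metal-withholding proteins, 9.25 with the next at 10.13. Control D28 replicate 6 was the lowest of its group for the same list, at 8.83 with the next at 9.33. Control D28 replicate 4 was the highest for Mt3, at 5.79 with the next at 5.17. Control D28 replicate 1 was the lowest for Atp7b, at 4.47 with the next at 4.86, and control D0 replicate 4 the lowest for Slc39a10, at 9.63 with the next at 9.78.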

How the results depend on the processing

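With 11 alternative settings and 23 fits without 1 array, Mt1 and Mt2A were called on D0 in all of them. The number of members called on D0 was 3 or 4 over the settings and 2 to 4 without 1 array, with 2 (Mt1 and Mt2A) without exposed D0 replicate 5. On D28 it was 0, except 1 (Mt1) by adjusted p alone, and 0 to 0 without 1 array. Between the control groups it was 1 (Mt3) with scaling to the 75th percentile and with the filter on spots well above background, and 0 to 1 without 1 array. All genes called on D0 numbered 220 with normexp background correction and 654 by adjusted p alone (315 to 439 without 1 array). On D28 they numbered 94 with normexp, 41 with only the arrays of the day and 303 by adjusted p alone (111 to 203 without 1 array, the 111 without exposed D28 replicate 1). Scaling moved the median over all genes by at most 0.05 on the log2 scale. The causes were not tested.

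Slc39a14 turned direction on D28, to -0.0062 with the deposited table and -0.24 with the slide as a block, and without 1 array it went from -0.11 to 0.68 on D0 and from -0.11 to 0.24 on D28. Atp7b turned on D0, to 0.12 with the stricter filter and with the brighter probe, both of which drop its dim probe. Dim probes are the limit of depth here, since Slc30a2, Slc30a8, Slc39a14 and Steap3 were near background.

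The replicate number as a block gave 3 members and 354 genes called on D0, and 0 and 138 on D28. Slc30a3 lost its call under it (0.57, adjusted p 0.00545 in limma). Of 11 same-numbered pairs, 3 were best correlated with their own number, all of them on D28. Whether the samples were paired was not settled.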
